A study of Mus musculus with 6 samples.

Results

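The genes described are 34 lysosomal genes, chosen by name. They encode membrane proteins and carriers, hydrolases that digest sugars, lipids, protein and DNA, and subunits and accessory proteins of the vacuolar ATPase (V-ATPase). Also among them are Psap and Grn, whose products are lysosomal proteins but not hydrolases, and the transcription factor Tfeb. All 34 were found among the 49016 gene symbols of the deposited count table. RNA was sequenced from 3 kinds of sorted mouse myeloid cell: monocytes, a circulating white blood cell, macrophages found inside blood vessels (labelled intravascular macrophages), and microglia, the macrophages that live in brain tissue. Each kind was taken from mice labelled as BRAFV600E mutant, which carry a mutant BRAF kinase that signals without being switched on, and from mice labelled WT, which are called BRAF V600E and wild type here. There was 1 library for each of the 6 combinations, so that no difference between genotypes within a cell type has a replicate. The age and number of the mice, the way the mutation was introduced and the cells that carry it, the gates of the sort and any pooling are not stated in the labels.

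The lysosome is the acidic organelle in which cells break down what they take up and what they discard of their own. The V-ATPase pumps protons into it, using a catalytic part in the cytosol (V1) and a membrane part (V0), and most of the hydrolases work only at the low pH that results. Inherited loss of many of these enzymes causes storage diseases, in which the undigested substrate builds up, and phagocytes such as macrophages and microglia carry a large lysosomal load. Tfeb and its relatives Tfe3, Mitf and Tfec are transcription factors known to bind E-box motifs near many lysosomal genes.

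Total counts ran from 25787476 to 65519506 per library. Values are given as CPM, counts put on 1 common library size by TMM, a scaling that sets aside the most extreme genes. Microglia markers summed to 56725 CPM in BRAF V600E and 28010 CPM in wild-type microglia and classical monocyte markers to 11599 CPM in BRAF V600E and 7109 CPM in wild-type monocytes, the highest pairs of the 3 cell types. Patrolling monocyte markers were highest in intravascular macrophages, at 2961 CPM in BRAF V600E and 2357 CPM in wild type; no list was held for these macrophages themselves. The wild-type intravascular macrophage library stood apart: 14 of 14 T and NK cell markers reached 10 CPM there, for a sum of 4580.4 CPM, against 0 of 14 and 4.01 CPM in the BRAF V600E library, which had no count of Cd8a or Ncr1. Counts for 15121 genes were found in the wild-type intravascular macrophage library, against 19063 to 23214 in the others. The BRAF V600E monocyte library stood apart as well, with 56358 CPM of neutrophil markers against 1958 CPM in wild type, and 10484 against 217 CPM of erythroid markers. The part of these other cells in the results was not tested. In bulk RNA, fewer cells of a type and less RNA per cell cannot be told apart.

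The 34 genes together took 0.478% of the counts in BRAF V600E monocytes and 0.896% in wild-type monocytes, 1.63% in BRAF V600E and 0.689% in wild-type intravascular macrophages, and 2.01% in BRAF V600E and 1.85% in wild-type microglia. Within a library, levels of different genes were compared per length, on the deposited TPM. Psap, the precursor of the saposins that help degrade sphingolipids, was first among the 34 in 5 of the 6 libraries. It held 28.5% of their summed TPM in BRAF V600E and 44.4% in wild-type monocytes, 27.8% in BRAF V600E and 30.7% in wild-type intravascular macrophages, and 12.96% in BRAF V600E and 13.9% in wild-type microglia. In BRAF V600E microglia Grn, which encodes the lysosomal glycoprotein progranulin, came first with 2381 TPM, followed by Hexa at 2097 TPM, Psap at 1646 TPM and Ctsa at 1643 TPM. Wild-type microglia had Psap first at 1220.0 TPM, with Grn and Hexa both at 1152 TPM and Lamp1 at 1070.4 TPM. At the low end Atp6v0d2 was last in every library, at 4.27 TPM or less, and Gla, alpha-galactosidase A, was next to last in every library, at 7.29 TPM or less.

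Across libraries, on the CPM scale, 19 of the 34 genes were highest in BRAF V600E microglia and 7 in wild-type microglia, while 16 were lowest in wild-type intravascular macrophages. With counts scaled by library size alone, 12 were highest in BRAF V600E microglia and 22 were lowest in BRAF V600E monocytes, so the order depends on the scaling. The plot of CPM by library shows all 34 genes.

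**Figure D1:**
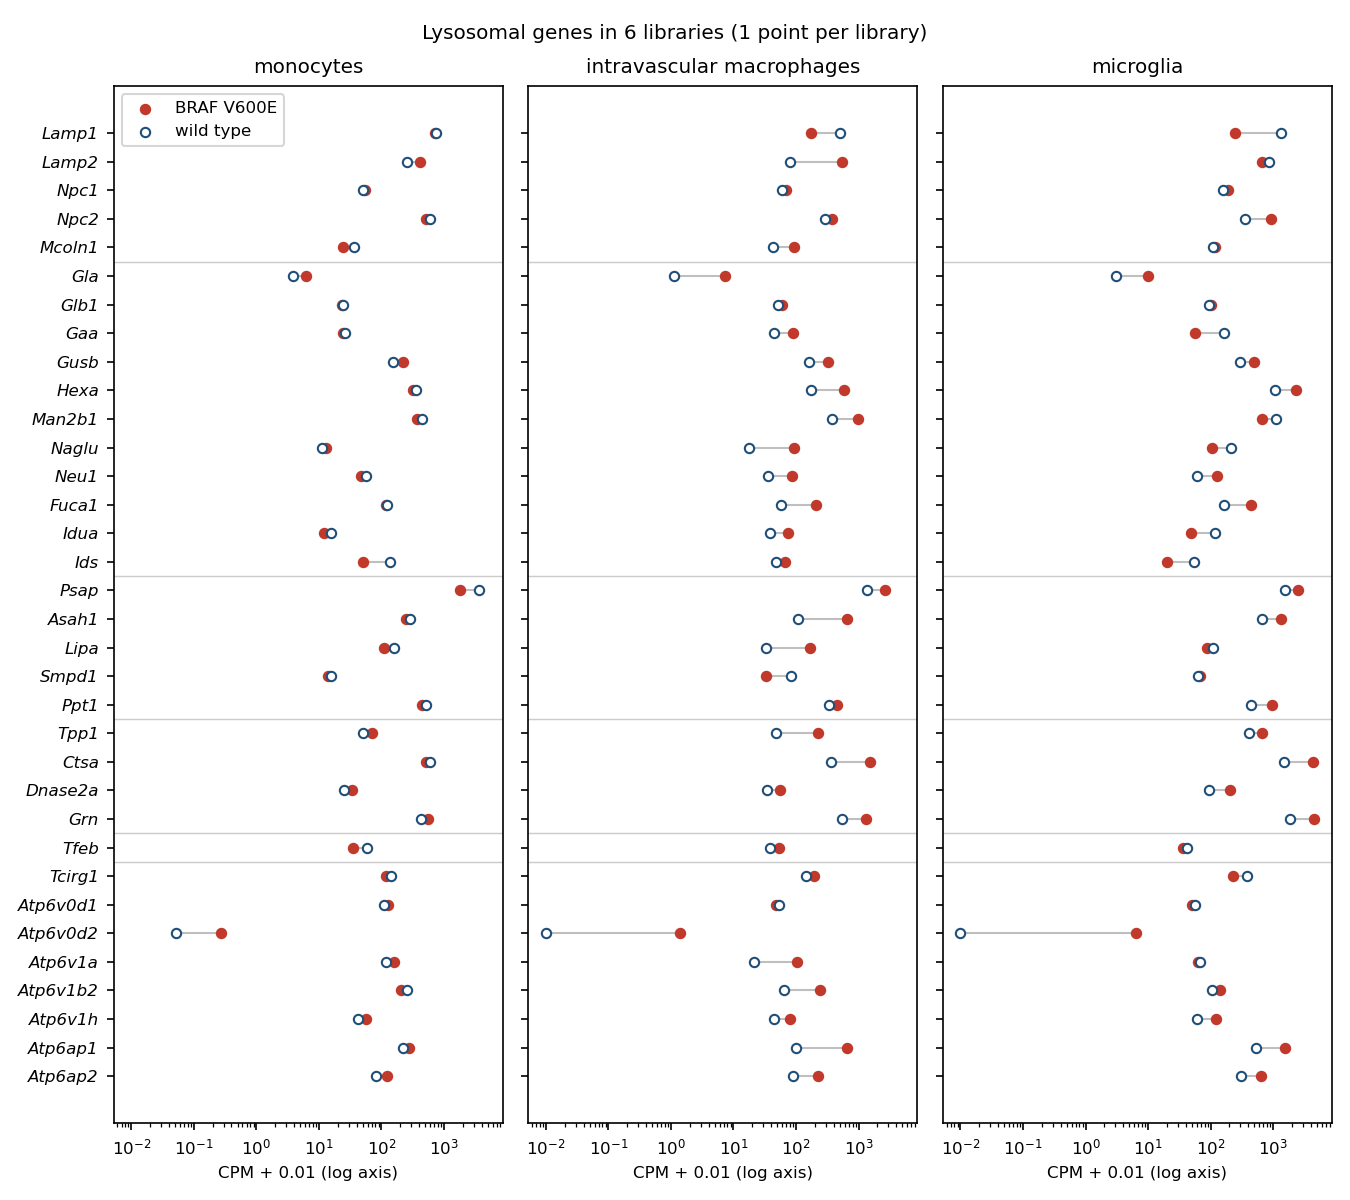
CPM plus 0.01 (log axis) of the 34 lysosomal genes in monocytes, intravascular macrophages and microglia, 1 filled point for the BRAF V600E library and 1 open point for the wild-type library, with grey lines between role groups. In intravascular macrophages the filled points lie to the right for 31 genes, Lamp1, Smpd1 and Atp6v0d1 being the exceptions, while in monocytes the 2 points lie close together for most genes.

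The promoter windows were read because Tfeb is a member and its motif is short enough to search. RefSeq windows of build GRCm38.p6, from 250 bases before to 50 bases after the annotated start, were held for 29 of the 34 genes; Npc1, Asah1, Atp6v0d2, Atp6v1b2 and Atp6v1h had no entry. The E-box CACGTG was present in 9 of the 29 genes (31.0%) and in 8.09% of all 27025 genes with a window. TCACGTG, which contains it, was searched on both strands and was present in the same 9 genes, against 4.29% of all genes, and the palindrome TCACGTGA in 5 (17.2%), against 1.12%. These 5 were Atp6v0d1, Atp6v1a, Ctsa, Gla and Mcoln1, and the other 4 were Gaa, Glb1, Lamp1 and Naglu. A match describes the letters of the window and does not show binding. Lamp1 had 4 copies within 62 bases upstream of its start, which is why its stretch is shown first. Gla, Ctsa and Mcoln1 had 2 copies each; both copies are in the stretch shown for Gla, while 1 of the 2 is shown for Ctsa and for Mcoln1. Capitals mark the motif on either strand, and each stretch is written 5′ to 3′ on the gene's strand.
Lamp1 (chr8:13159079-13159160, plus strand): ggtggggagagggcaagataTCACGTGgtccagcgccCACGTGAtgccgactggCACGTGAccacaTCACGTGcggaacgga
Gla (chrX:134601173-134601253, minus strand): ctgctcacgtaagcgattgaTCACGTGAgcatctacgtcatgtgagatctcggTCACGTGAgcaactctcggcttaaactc
Gaa (chr11:119267802-119267848, plus strand): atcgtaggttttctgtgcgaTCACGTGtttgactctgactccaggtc
Glb1 (chr9:114401009-114401055, plus strand): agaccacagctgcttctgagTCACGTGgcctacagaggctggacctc
Ctsa (chr2:164833749-164833778, plus strand): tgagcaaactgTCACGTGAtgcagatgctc
Mcoln1 (chr8:3500462-3500491, plus strand): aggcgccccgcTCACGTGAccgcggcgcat
Atp6v0d1 (chr8:105566050-105566079, minus strand): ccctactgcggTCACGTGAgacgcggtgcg
Atp6v1a (chr16:44139373-44139402, minus strand): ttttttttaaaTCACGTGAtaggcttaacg
Naglu (chr11:101070009-101070037, plus strand): caaccttcaggTCACGTGgcccgaggtcg
These 9 genes did not share a direction between genotypes: Lamp1 was lower and Ctsa higher in both BRAF V600E intravascular macrophages and microglia, and Gaa and Naglu were higher in the macrophages and lower in microglia; their values are given with their role groups. Mcoln1 and Atp6v1a passed 2-fold only in intravascular macrophages, where both were higher in BRAF V600E. Gla was higher there too but stayed below 10 CPM. Atp6v0d1 and Glb1 were within 2-fold in all 3 cell types.

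In intravascular macrophages most lysosomal genes were higher in the BRAF V600E library than in the wild-type library. Of the 32 genes that reached 10 CPM in the higher library, 18 were at least 2-fold higher and 2 at least 2-fold lower, while the same rule set 26.9% of all 9565 genes as higher and 28.8% as lower. The median log2 ratio of the 32 genes was 1.07, against -0.13 over all genes, and 29 of the 32 were above 0. In the same library pair, the T and NK cell markers and the number of detected genes differed as given above, and the summed markers of 4 cell types were higher in BRAF V600E, as most lysosomal genes were. Microglia markers summed to 8469 CPM in BRAF V600E and 2028 CPM in wild type, and border macrophage markers to 666 CPM in BRAF V600E and 42.4 CPM in wild type. Neutrophil markers summed to 684 CPM in BRAF V600E and 131 CPM in wild type, and classical monocyte markers to 1047 CPM in BRAF V600E and 427 CPM in wild type. Of the markers at 10 CPM, 9 of 9, 6 of 6, 8 of 8 and 3 of 6 of these lists were at least 2-fold higher in BRAF V600E. Of the border macrophage markers Folr2 and Cbr2 had no count in wild type, and none was at 0 in BRAF V600E. The part of these cells in the result was not tested. The deposited TPM moved the median of all genes in this pair to 1.02. It set 30 of the lysosomal genes and 4839 of all 9565 genes at least 2-fold higher. The predicted gene Gm23935 held 5.02% of the TPM in BRAF V600E and 46.6% in wild type. Relative to the median of all genes, the median of the lysosomal genes lay higher by 1.05 to 1.20 on the log2 scale under every scaling tried.

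At least 2-fold, 12 lysosomal genes were higher and 5 lower in BRAF V600E microglia, where 27.9% of all 8798 genes were higher and 25.4% lower. The median log2 ratio was 0.33, against 0.12 over all genes. With library size alone, 613 of all 8798 genes were 2-fold higher and 3498 lower. None of the 32 lysosomal genes at 10 CPM was higher with it and 7 were lower. The medians were then -0.29 for the lysosomal genes and -0.62 for all genes. Relative to the median of all genes, their median was higher by 0.20 to 0.41 under every scaling, and with that median subtracted, an alternative added after seeing the data, 7 genes were 2-fold higher and 5 lower. In this pair Gm23935 held 1.13% of the TPM in BRAF V600E and 38.1% in wild type.

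In monocytes no lysosomal gene at 10 CPM was at least 2-fold higher and 2 were lower in the BRAF V600E library, where 16.7% of all 8377 genes were higher and 6.33% lower. The median log2 ratio was -0.11, against 0.05 over all genes. Minus that of all genes it stood between -0.18 and -0.12 under every scaling. Library size alone moved the median of all genes in this pair to -0.58 and the deposited TPM to -0.71. With these, 5 and 13 of the lysosomal genes were 2-fold lower, and 2102 and 2492 of all 8377 genes. Border macrophage markers summed to 2067 CPM in BRAF V600E and 52.8 CPM in wild-type monocytes, with 7 of the 7 at 10 CPM at least 2-fold higher, besides the neutrophil and erythroid markers given above; their part was not tested.

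The genotypes were also compared over the 3 cell types together, in an edgeR quasi-likelihood fit with the cell type as a block that was added after seeing the data. It called no lysosomal gene in either direction after adjustment over 17023 genes, where 0.00587% of all genes were higher and 0.0% lower. At an unadjusted p under 0.05 there was 1 lysosomal gene (2.94%), Atp6v0d2, against 2.90% of all genes. The median log2 fold change was 0.57, against 0.26 over all genes, and 26 of the 34 were above 0. DESeq2 called Atp6v0d2 higher in BRAF V600E, as did edgeR without either intravascular macrophage library. In such a fit, genotype differences that vary between cell types add to the spread.

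The scaling also moved the balance of all genes. Of all genes past 2-fold, 72.5% were higher in BRAF V600E monocytes, against 27.1% with library size alone and 18.1% with TPM. In intravascular macrophages these shares were 48.3%, 49.7% and 83.0%, and in microglia 52.4%, 14.9% and 38.3%. The cumulative plot sets the lysosomal genes beside all genes on the TMM scale.

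**Figure D2:**
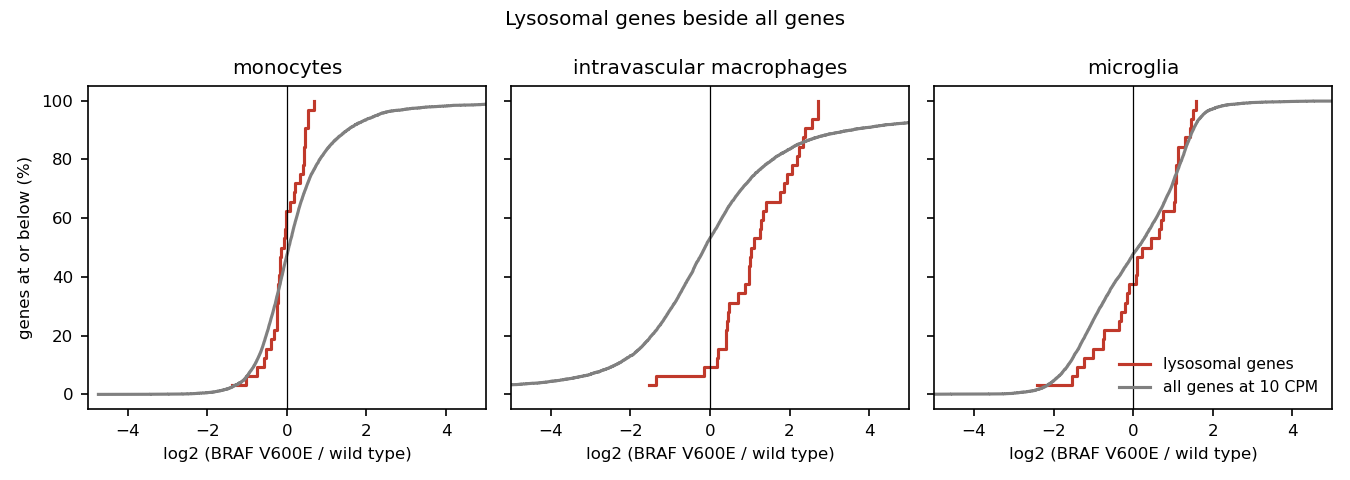
Cumulative share of genes (%) by log2 ratio of BRAF V600E to wild type, for the 32 lysosomal genes at 10 CPM (red) and for all genes at 10 CPM (grey), in monocytes, intravascular macrophages and microglia. In intravascular macrophages the red curve lies right of the grey one up to a log2 ratio of about 2, with medians of 1.07 and -0.13, while in monocytes and microglia the curves cross.

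Among the membrane proteins, Lamp1 and Lamp2, the abundant glycoproteins that line the lysosomal membrane, parted. Lamp1 (ENSMUSG00000031447.7, chromosome 8, 13159161 to 13175338, build mm10, GENCODE vM21) had 723 CPM in BRAF V600E and 733 CPM in wild-type monocytes, 175 CPM in BRAF V600E and 509 CPM in wild-type intravascular macrophages, and 248 CPM in BRAF V600E and 1317 CPM in wild-type microglia. It was thus lower in the BRAF V600E library by 2.91-fold in intravascular macrophages (95% counting interval 2.85 to 2.98) and by 5.30-fold in microglia (5.18 to 5.43), and within 2-fold in monocytes. Lamp2 (ENSMUSG00000016534.15, chromosome X, 38401357 to 38456454), which is also the receptor of chaperone-mediated autophagy, had 411 CPM in BRAF V600E and 255 CPM in wild-type monocytes, 537 CPM in BRAF V600E and 81.2 CPM in wild-type intravascular macrophages, and 659 CPM in BRAF V600E and 844 CPM in wild-type microglia. In intravascular macrophages it was 6.61-fold higher in BRAF V600E (6.37 to 6.86), the highest fold of the 32 genes there; its microglial log2 ratio of -0.36 turned to 0.53 when a trend on gene length was taken out. Per length, Lamp1 over Lamp2 was 6.28 in BRAF V600E and 10.3 in wild-type monocytes, 1.16 in BRAF V600E and 22.4 in wild-type intravascular macrophages, and 1.35 in BRAF V600E and 5.57 in wild-type microglia. This ratio is taken within a library and does not depend on the scaling. A trend on gene length that differs between libraries can still enter it, as Lamp1 has 2675 exon bases and Lamp2 9552. Of the exon bases of Lamp1, 9.31% overlap Grtp1 on the opposite strand, and whether the counting used strand is not stated.

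Npc2, the soluble carrier that hands cholesterol to the membrane carrier Npc1, had 510.4 CPM in BRAF V600E and 591 CPM in wild-type monocytes, 376 CPM in BRAF V600E and 287 CPM in wild-type intravascular macrophages, and 938 CPM in BRAF V600E and 350.4 CPM in wild-type microglia, where it was 2.68-fold higher in BRAF V600E (2.63 to 2.73). Npc1 stayed between 51.5 and 187 CPM, with log2 ratios of 0.08, 0.20 and 0.23 in monocytes, intravascular macrophages and microglia. Mcoln1, the lysosomal calcium channel TRPML1, had 24.1 CPM in BRAF V600E and 36.1 CPM in wild-type monocytes, 94.2 CPM in BRAF V600E and 43.4 CPM in wild-type intravascular macrophages, and 116 CPM in BRAF V600E and 110.4 CPM in wild-type microglia. Only the intravascular macrophages passed 2-fold for Mcoln1, with 2.17-fold higher counts in BRAF V600E (2.06 to 2.29).

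The 11 enzymes that act on sugar chains were higher as a group in BRAF V600E intravascular macrophages and went both ways in microglia. Of the 10 at 10 CPM, 7 were at least 2-fold higher in the macrophages, against 26.9% of all genes. None was lower there, against 28.8%, and the median log2 ratio was 1.15. In microglia 3 were higher, near the 27.9% of all genes, and 4 lower, against 25.4%, with a median of -0.32. In monocytes 1 was lower, against 6.33% of all genes.
Hexa, the alpha chain of beta-hexosaminidase, had 321 CPM in BRAF V600E and 353 CPM in wild-type monocytes, 589.9 CPM in BRAF V600E and 175 CPM in wild-type intravascular macrophages, and 2304 CPM in BRAF V600E and 1058 CPM in wild-type microglia. Fuca1, alpha-fucosidase, had 118 CPM in BRAF V600E and 122 CPM in wild-type monocytes, 207 CPM in BRAF V600E and 56.9 CPM in wild-type intravascular macrophages, and 447 CPM in BRAF V600E and 164 CPM in wild-type microglia. Neu1, the lysosomal sialidase, had 47.9 CPM in BRAF V600E and 56.8 CPM in wild-type monocytes, 87.6 CPM in BRAF V600E and 36.2 CPM in wild-type intravascular macrophages, and 129 CPM in BRAF V600E and 61.4 CPM in wild-type microglia. These 3 were more than 2-fold higher in BRAF V600E in both macrophage types and nearly level in monocytes, with folds of 3.36, 3.64 and 2.42 in intravascular macrophages and 2.18, 2.73 and 2.10 in microglia for Hexa, Fuca1 and Neu1. Tmem202 overlaps 12.8% of the exon bases of Hexa on the opposite strand.

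Gaa and Naglu turned between the macrophage types. Gaa, the acid alpha-glucosidase that degrades glycogen, had 24.5 CPM in BRAF V600E and 26.0 CPM in wild-type monocytes, 89.4 CPM in BRAF V600E and 44.0 CPM in wild-type intravascular macrophages, and 57.3 CPM in BRAF V600E and 165 CPM in wild-type microglia. Naglu (ENSMUSG00000001751.9, chromosome 11, 101070012 to 101077672), which removes N-acetylglucosamine from heparan sulfate, had 12.8 CPM in BRAF V600E and 11.2 CPM in wild-type monocytes, 94.2 CPM in BRAF V600E and 17.8 CPM in wild-type intravascular macrophages, and 106 CPM in BRAF V600E and 215 CPM in wild-type microglia. In intravascular macrophages Gaa was 2.03-fold (1.93 to 2.15) and Naglu 5.29-fold higher in BRAF V600E (4.88 to 5.74), and in microglia Gaa was 2.88-fold (2.74 to 3.03) and Naglu 2.02-fold lower (1.94 to 2.10). Their signs in both cell types were kept under every scaling. Idua and Ids, which act on heparan and dermatan sulfate, were lower in BRAF V600E microglia too. Idua had 12.03 CPM in BRAF V600E and 15.9 CPM in wild-type monocytes, 75.5 CPM in BRAF V600E and 38.1 CPM in wild-type intravascular macrophages, and 48.9 CPM in BRAF V600E and 116 CPM in wild-type microglia. Its fold of 1.98 in intravascular macrophages lay just inside the 2-fold rule, and that in microglia was 2.37-fold lower (2.24 to 2.51). Ids had 51.3 CPM in BRAF V600E and 135 CPM in wild-type monocytes, 66.1 CPM in BRAF V600E and 48.1 CPM in wild-type intravascular macrophages, and 20.03 CPM in BRAF V600E and 53.4 CPM in wild-type microglia. It was the only gene of the 34 that was 2-fold lower in monocytes (2.62-fold, 2.48 to 2.78) and in microglia (2.67-fold, 2.45 to 2.91).

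Man2b1, alpha-mannosidase, had 373 CPM in BRAF V600E and 443 CPM in wild-type monocytes, 986 CPM in BRAF V600E and 373 CPM in wild-type intravascular macrophages, and 667 CPM in BRAF V600E and 1102 CPM in wild-type microglia, so that it was 2.64-fold higher in the BRAF V600E macrophages (2.60 to 2.69) and 1.65-fold lower in microglia. Gusb, beta-glucuronidase, had 221 CPM in BRAF V600E and 154 CPM in wild-type monocytes, 325 CPM in BRAF V600E and 161 CPM in wild-type intravascular macrophages, and 501 CPM in BRAF V600E and 296 CPM in wild-type microglia. It lay close to the threshold in intravascular macrophages, at 2.02-fold (1.96 to 2.07). Glb1, beta-galactosidase, differed by less than 1.2-fold between genotypes in each cell type, with log2 ratios of -0.02, 0.18 and 0.10. Gla stayed below 10 CPM in all 6 libraries and was set aside from the counts, with 7.30 CPM in BRAF V600E and 1.09 CPM in wild-type intravascular macrophages.

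Among the genes of lipid breakdown, Asah1, acid ceramidase, had 243 CPM in BRAF V600E and 282 CPM in wild-type monocytes, 645 CPM in BRAF V600E and 108 CPM in wild-type intravascular macrophages, and 1333 CPM in BRAF V600E and 652 CPM in wild-type microglia. It was 5.95-fold higher in BRAF V600E intravascular macrophages (5.76 to 6.15) and 2.04-fold higher in microglia (2.01 to 2.07). Lipa, the acid lipase that splits cholesteryl esters and triglycerides, had 111 CPM in BRAF V600E and 161 CPM in wild-type monocytes, 166 CPM in BRAF V600E and 32.6 CPM in wild-type intravascular macrophages, and 87.6 CPM in BRAF V600E and 108 CPM in wild-type microglia, so that only the intravascular macrophages passed 2-fold, with 5.09-fold higher counts in BRAF V600E (4.80 to 5.40). Smpd1, acid sphingomyelinase, went the other way in these cells. It had 14.0 CPM in BRAF V600E and 15.9 CPM in wild-type monocytes, 32.7 CPM in BRAF V600E and 83.1 CPM in wild-type intravascular macrophages, and 66.7 CPM in BRAF V600E and 62.0 CPM in wild-type microglia, and was 2.54-fold lower in BRAF V600E intravascular macrophages (2.41 to 2.68).
Psap (ENSMUSG00000004207.14, chromosome 10, 60277627 to 60302597) had 1812 CPM in BRAF V600E and 3683 CPM in wild-type monocytes, 2664 CPM in BRAF V600E and 1353 CPM in wild-type intravascular macrophages, and 2485 CPM in BRAF V600E and 1540.3 CPM in wild-type microglia. It was 2.03-fold lower in BRAF V600E monocytes (2.01 to 2.05), with neutrophil and erythroid markers higher in that library as given above, and 1.97-fold higher in intravascular macrophages, just inside the rule. Ppt1, the palmitoyl-protein thioesterase, had 453 CPM in BRAF V600E and 506 CPM in wild-type monocytes, 444 CPM in BRAF V600E and 333 CPM in wild-type intravascular macrophages, and 954 CPM in BRAF V600E and 435 CPM in wild-type microglia, where it was 2.19-fold higher in BRAF V600E (2.15 to 2.23).

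The 4 genes grouped under protein and DNA breakdown were above 0 in log2 ratio in both macrophage types. Their medians were 1.66 in intravascular macrophages and 1.19 in microglia. The group takes in Grn, which encodes a glycoprotein and not an enzyme. Ctsa, the protective protein cathepsin A that holds beta-galactosidase and sialidase in a complex, had 514 CPM in BRAF V600E and 589 CPM in wild-type monocytes, 1499 CPM in BRAF V600E and 357 CPM in wild-type intravascular macrophages, and 4264 CPM in BRAF V600E and 1503 CPM in wild-type microglia. It was 4.20-fold higher in BRAF V600E intravascular macrophages (4.12 to 4.28) and 2.84-fold higher in microglia (2.81 to 2.86); 17.4% of its exon bases overlap Neurl2 and Pltp on the opposite strand. Grn (ENSMUSG00000034708.11, chromosome 11, 102430315 to 102437048) had 562 CPM in BRAF V600E and 425 CPM in wild-type monocytes, 1309 CPM in BRAF V600E and 552 CPM in wild-type intravascular macrophages, and 4552 CPM in BRAF V600E and 1842 CPM in wild-type microglia. It was 2.37-fold higher in BRAF V600E intravascular macrophages (2.34 to 2.41) and 2.47-fold higher in microglia (2.45 to 2.49). Tpp1 (ENSMUSG00000030894.5, chromosome 7, 105744811 to 105752235), tripeptidyl peptidase, had 69.3 CPM in BRAF V600E and 50.8 CPM in wild-type monocytes, 222 CPM in BRAF V600E and 48.5 CPM in wild-type intravascular macrophages, and 653 CPM in BRAF V600E and 413 CPM in wild-type microglia, and passed 2-fold only in intravascular macrophages, at 4.59-fold (4.37 to 4.82). Dnase2a, the acid DNase that digests DNA of engulfed cells, had 34.4 CPM in BRAF V600E and 25.3 CPM in wild-type monocytes, 56.2 CPM in BRAF V600E and 34.4 CPM in wild-type intravascular macrophages, and 201 CPM in BRAF V600E and 95.2 CPM in wild-type microglia, where the fold was 2.11 (2.03 to 2.19). Mast1 overlaps 29.99% of the exon bases of Dnase2a on the opposite strand.

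Tfeb (ENSMUSG00000023990.18, chromosome 17, 47737030 to 47792419) stayed within 2-fold in all 3 cell types on the TMM scale. It had 35.0 CPM in BRAF V600E and 59.3 CPM in wild-type monocytes, 53.4 CPM in BRAF V600E and 38.5 CPM in wild-type intravascular macrophages, and 36.7 CPM in BRAF V600E and 41.9 CPM in wild-type microglia. From the highest to the lowest library its level differed by 1.69-fold, the smallest range of the 33 genes for which this ratio could be formed. Both statements depend on the scaling. With library size alone its range was 3.27-fold and its log2 ratio in monocytes -1.35, and with TPM the range was 5.93-fold and the log2 ratios were -1.46 in monocytes and 1.59 in intravascular macrophages; 6 and 7 other genes then had smaller ranges.

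Of the V-ATPase genes, the accessory proteins are given first. Atp6ap1, an accessory protein of the V0 part (ENSMUSG00000019087.13, chromosome X, 74297097 to 74304721), had 279 CPM in BRAF V600E and 221 CPM in wild-type monocytes, 648 CPM in BRAF V600E and 99.1 CPM in wild-type intravascular macrophages, and 1558 CPM in BRAF V600E and 524 CPM in wild-type microglia. It was 6.54-fold higher in BRAF V600E intravascular macrophages (6.32 to 6.76) and 2.97-fold higher in microglia (2.93 to 3.02), the highest fold of the 32 genes in microglia. Atp6ap2, the second accessory protein, also known as the prorenin receptor, had 121 CPM in BRAF V600E and 83.3 CPM in wild-type monocytes, 223 CPM in BRAF V600E and 88.9 CPM in wild-type intravascular macrophages, and 639 CPM in BRAF V600E and 309 CPM in wild-type microglia, with folds of 2.51 and 2.06 in the macrophage types.
Of the 3 V1 subunits among the 34 genes, 2 were at least 2-fold higher in BRAF V600E intravascular macrophages, against 26.9% of all genes. Atp6v1a, the catalytic A subunit, had 159 CPM in BRAF V600E and 119 CPM in wild-type monocytes, 102 CPM in BRAF V600E and 21.4 CPM in wild-type intravascular macrophages, and 62.3 CPM in BRAF V600E and 66.8 CPM in wild-type microglia. Its partner Atp6v1b2, the B2 subunit, had 203 CPM in BRAF V600E and 255 CPM in wild-type monocytes, 244 CPM in BRAF V600E and 63.3 CPM in wild-type intravascular macrophages, and 142 CPM in BRAF V600E and 105 CPM in wild-type microglia. The BRAF V600E intravascular macrophages were 4.76-fold higher for Atp6v1a (4.43 to 5.13) and 3.85-fold higher for Atp6v1b2 (3.69 to 4.02), and neither passed 2-fold elsewhere. Atp6v1h, the regulatory H subunit, had 57.2 CPM in BRAF V600E and 42.0 CPM in wild-type monocytes, 80.7 CPM in BRAF V600E and 44.1 CPM in wild-type intravascular macrophages, and 123 CPM in BRAF V600E and 59.5 CPM in wild-type microglia, where it was 2.07-fold higher in BRAF V600E (1.97 to 2.17); its fold in intravascular macrophages was 1.83.

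The V0 part had 3 genes among the 34. Atp6v0d1, the widely expressed d1 subunit, had 128 CPM in BRAF V600E and 111 CPM in wild-type monocytes, 48.7 CPM in BRAF V600E and 54.1 CPM in wild-type intravascular macrophages, and 50.2 CPM in BRAF V600E and 56.1 CPM in wild-type microglia. Its largest difference between genotypes was 1.16-fold. Tcirg1, the a3 subunit known from osteoclasts, stayed within 2-fold as well, with log2 ratios of -0.26 in monocytes, 0.44 in intravascular macrophages and -0.76 in microglia. Atp6v0d2 (ENSMUSG00000028238.6, chromosome 4, 19876841 to 19922605), the d2 isoform known from osteoclasts and macrophages, was low throughout and held apart by its counts. It had 10 reads in BRAF V600E and 1 in wild-type monocytes, 120 in BRAF V600E and 0 in wild-type intravascular macrophages, and 208 in BRAF V600E and 0 in wild-type microglia. Against a floor of 3 counts in the wild-type library this is at least 17.2-fold higher in BRAF V600E intravascular macrophages and at least 97.4-fold higher in BRAF V600E microglia, and the exact lower 95% limits, which also take in the counting error of the BRAF V600E reads, were 13.7 and 78.5. The ratio in monocytes was 6.24 with an interval of 0.888 to 271. At 1.41 and 6.39 CPM in the BRAF V600E intravascular macrophages and microglia, it remained below the 10 CPM needed to be counted.

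**Figure D3:**
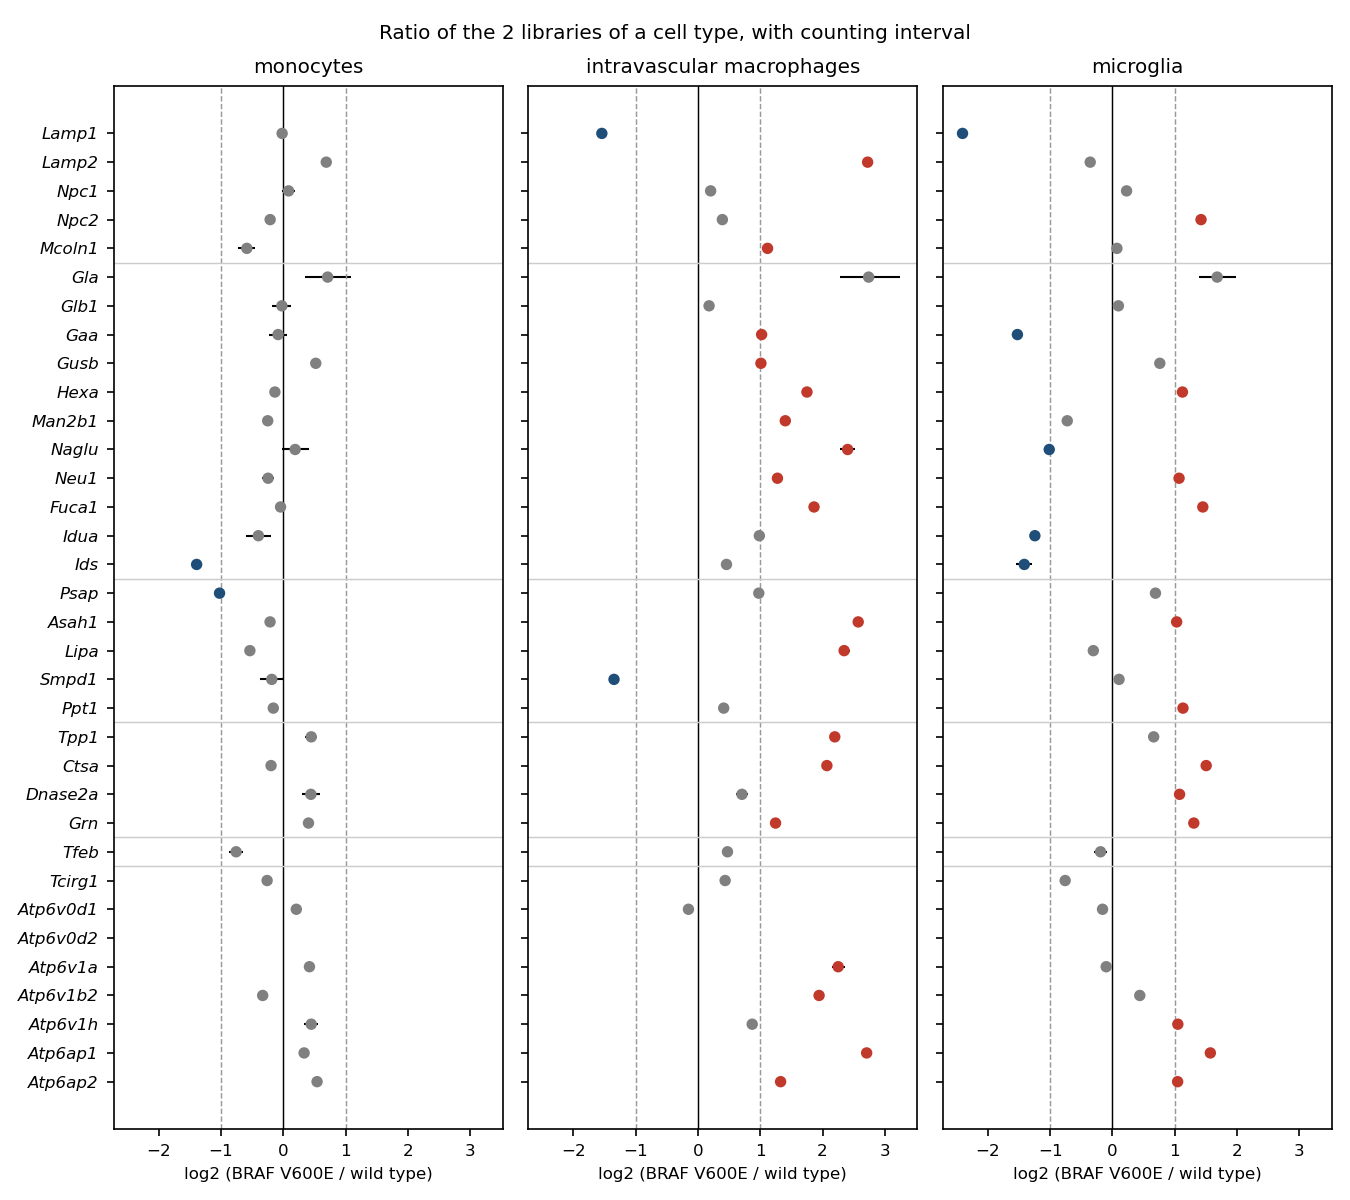
Log2 ratio of the BRAF V600E to the wild-type library for each lysosomal gene in monocytes, intravascular macrophages and microglia, with 95% counting intervals (mostly narrower than the point); dashed lines mark 2-fold, red points are at least 2-fold higher and blue points at least 2-fold lower in BRAF V600E at 10 CPM or more. Red points number 0, 18 and 12 in the 3 panels and blue points 2, 2 and 5; Atp6v0d2 is left out because 2 of its wild-type libraries had no count, and Gla is grey because it stayed below 10 CPM.

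Across the 3 comparisons of genotypes, 8 genes were at least 2-fold higher in BRAF V600E in both intravascular macrophages and microglia: Hexa, Neu1, Fuca1, Asah1, Ctsa, Grn, Atp6ap1 and Atp6ap2. None of these was 2-fold higher in monocytes. Another 6 were at least 2-fold higher in intravascular macrophages with a log2 ratio below 0 in microglia: Lamp2, Gaa, Man2b1, Naglu, Lipa and Atp6v1a. Of these only Gaa and Naglu were 2-fold lower in microglia. The microglial log2 ratios of Atp6v1a, Lipa and Lamp2 were -0.10, -0.31 and -0.36, and that of Lamp2 changed sign without the length trend, as given above. The 4 that passed 2-fold higher in microglia and not in intravascular macrophages were Npc2, Ppt1, Dnase2a and Atp6v1h. Past 2-fold in no cell type were Npc1, Glb1, Tfeb, Tcirg1 and Atp6v0d1, besides Gla and Atp6v0d2, which stayed below 10 CPM. Of all genes, 26.9% were at least 2-fold higher in BRAF V600E intravascular macrophages and 27.9% in microglia. The share of all genes in each of these overlaps was not counted, so the overlaps are not read as a trait of lysosomal genes. With 1 library per group, a difference of these folds between cell types was not tested.

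The cell types were then compared over both genotypes. The quasi-likelihood test of edgeR was fitted to the 6 libraries together, with the genotype taken out as a block, and p-values were adjusted by Benjamini-Hochberg over 17023 genes. With 2 residual degrees of freedom the p-values reflect no more than the spread among the 6 libraries, which may in part be technical. All 34 genes were tested. The 3 comparisons share libraries, so their results are not independent of each other.

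Most of these genes had higher levels in microglia than in monocytes. Over the 34 genes the median log2 fold change was 1.25, against 0.12 over all genes, and 26 were above 0. After adjustment 2 genes rose in microglia and none fell, where 1.76% of all genes were higher and 3.23% lower. Naglu had 106 CPM in BRAF V600E and 215 CPM in wild-type microglia, against 12.8 CPM in BRAF V600E and 11.2 CPM in wild-type monocytes, a log2 fold change of 3.79 (adjusted p = 0.0279, edgeR). Within the genotypes its log2 ratio was 3.05 in BRAF V600E and 4.25 in wild type. Tpp1 had 653 CPM in BRAF V600E and 413 CPM in wild-type microglia, against 69.3 CPM in BRAF V600E and 50.8 CPM in wild-type monocytes, a log2 fold change of 3.08 (adjusted p = 0.0486, edgeR), with 3.23 in BRAF V600E and 3.02 in wild type. Both calls were lost without either monocyte library or without the wild-type microglia library, when adjusted p lay between 0.247 and 0.955, and 15 of the 34 genes were called without either intravascular macrophage library. DESeq2 called 7 genes higher: Naglu, Tpp1, Grn, Dnase2a, Idua, Atp6ap2 and Glb1. The shares of all genes called in these other fits were not counted.

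In 22 of the 34 genes both microglia libraries were above both monocyte libraries, and in 4 both were below, against 32.9% and 29.2% of all genes tested. Those below were Lipa, Atp6v0d1, Atp6v1a and Atp6v1b2, of which 3 are V-ATPase subunits. Scaled by library size alone 24 were above and 2 below, and with TPM 24 above and none below. For Atp6v0d1 the microglia libraries had 50.2 CPM in BRAF V600E and 56.1 CPM in wild type, against 128 CPM in BRAF V600E and 111 CPM in wild-type monocytes. Its log2 fold change of -1.20 did not pass the test (adjusted p = 0.410, edgeR). The ratio of microglia to monocytes had opposite signs in the genotypes for 7 genes, a share not counted over all genes. For Lamp1 the ratio was -1.54 on the log2 scale in BRAF V600E and 0.85 in wild type. The other 6 were above 0 in BRAF V600E and below 0 in wild type, with 0.46 and -1.26 for Psap, 0.88 and -0.75 for Npc2, 1.07 and -0.22 for Ppt1, 0.67 and -0.29 for Gla, 0.07 and -0.50 for Tfeb and 4.37 and -0.94 for Atp6v0d2.

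**Figure D4:**
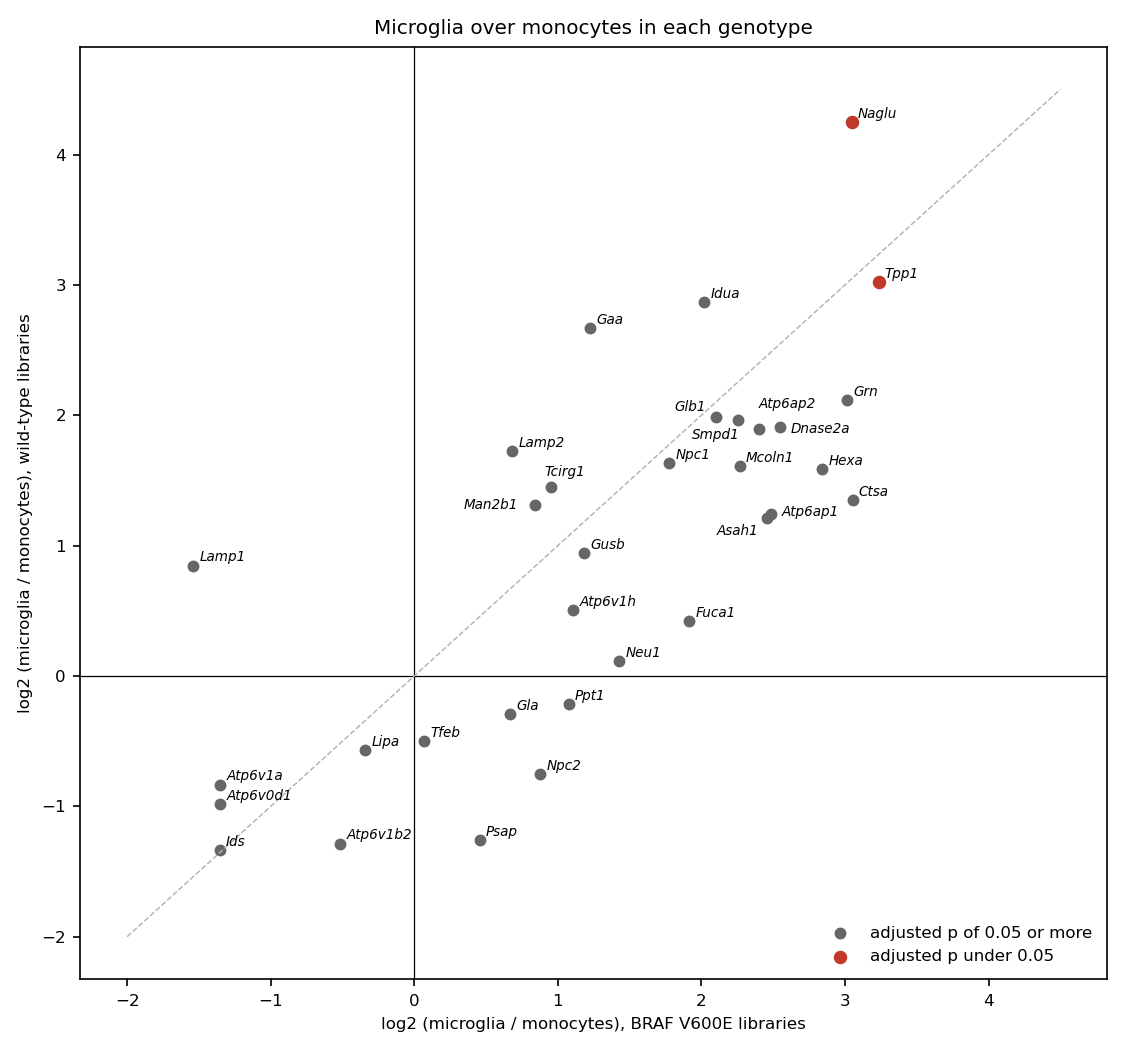
Log2 ratio of microglia to monocytes in BRAF V600E libraries (x axis) and in wild-type libraries (y axis) for 33 lysosomal genes, without Atp6v0d2; the dashed line marks equal ratios and red marks an adjusted p under 0.05 in the fit over all 6 libraries. Most points lie in the upper right, Naglu and Tpp1 farthest out, while Lamp1 alone lies in the upper left.

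Between intravascular macrophages and monocytes no lysosomal gene was called in either direction by edgeR, where 0.27% of all genes were higher and 0.241% lower; 3 genes (8.82%) had an unadjusted p under 0.05, against 8.38% of all genes, and DESeq2 called none. The 3 were Idua, Smpd1 and Naglu, with log2 fold changes of 2.03, 1.84 and 2.01. The median log2 fold change was 0.01, against -0.12 over all genes. Both intravascular macrophage libraries were above both monocyte libraries in 9 genes and below them in 5, near the 20.3% and 22.9% of all genes. Leaving out either intravascular macrophage library left only 1 for these cells, so the calls of those fits are not read as a result about these genes.

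Between intravascular macrophages and microglia no lysosomal gene was called by edgeR either, where 1.25% of all genes were higher and 0.0411% lower; 4 genes (11.8%) had an unadjusted p under 0.05, against 7.21% of all genes, and DESeq2 called none. The median log2 fold change was -0.81, against -0.18 over all genes, and 31 of the 34 were below 0. Both intravascular macrophage libraries were below both microglia libraries in 13 genes, against 22.2% of all genes, and above them in none, against 13.7%. The 4 genes with an unadjusted p under 0.05 were Tpp1, Dnase2a, Hexa and Atp6ap2, with log2 fold changes of -2.25, -1.67, -2.24 and -1.66. Leaving out the BRAF V600E intravascular macrophage library left only the wild-type one, with its T and NK cell markers. Calls of that fit are not read as a result about these genes.

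A wider set of 77 other lysosomal genes, none of them among the 34, was read by the same rules. In BRAF V600E intravascular macrophages 27 of the 68 at 10 CPM were at least 2-fold higher (39.7%, against 26.9% of all genes) and 6 lower. In microglia 23 of 67 were higher (34.3%, against 27.9% of all genes) and 12 lower, and in monocytes 12 of 64 were higher (18.8%, against 16.7% of all genes) and 1 lower. By list, the hydrolases and their transport proteins had 14 of 25 higher in intravascular macrophages (median log2 ratio 1.02) and 7 of 25 in microglia (0.48). The membrane proteins had 7 of 18 higher in intravascular macrophages (0.51) and 3 of 17 in microglia (0.31), and the regulators 4 of 15 (0.27) and 6 of 15 (-0.24). The other V-ATPase subunits had 2 of 10 higher in intravascular macrophages (0.50), 7 of 10 in microglia (1.497) and 3 of 10 in monocytes (0.79). Within intravascular macrophages their log2 ratios ran from 3.60 for Atp6v0a1, a V0 subunit, to -0.72 for Atp6v1d, a V1 subunit. In monocytes Cd63, a tetraspanin of late endosomes and lysosomes, had 103 CPM in BRAF V600E and 2.92 CPM in wild type, 35.3-fold higher (27.8 to 45.5), in the library pair whose border macrophage, neutrophil and erythroid markers differed as given above. Acp5, the tartrate-resistant acid phosphatase known from osteoclasts, had 14.0 CPM in BRAF V600E and 0.197 CPM in wild-type microglia, 71.3-fold higher (37.2 to 157), and 46.5 CPM in BRAF V600E and 8.22 CPM in wild-type monocytes. Galc and Mitf had 1 and 3 reads in wild-type intravascular macrophages, against 1194 and 1226 in BRAF V600E, ratios of 512 (91.8 to 20250) and 175 (59.9 to 851).
Between microglia and monocytes 6 of the 73 tested rose and 1 fell by the edgeR test. Those that rose included Aga, Acp2, Pla2g15, Lgmn and Cd63, and the 1 that fell was Lamtor2, a scaffold of the complex that recruits mTOR to the lysosome, with a log2 fold change of -3.62 (adjusted p = 0.0328, edgeR).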

How the data were processed

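RNA of sorted mouse monocytes, intravascular macrophages and microglia was sequenced from BRAF V600E and wild-type mice, 1 library per group, after SMART-Seq HT cDNA synthesis and Nextera XT library preparation, per the labels' protocols. The authors deposited raw read counts per gene, per the file headers, and the submitters' processing notes name bcl2fastq 2.20, Trimmomatic 0.37, STAR 2.5.2b, Subread 1.5.2 and the build mm10; their roles, the annotation and the strand setting are not stated. The authors also deposited TPM, counts divided by gene length and scaled to 1 sum per library, per the file headers; count over TPM was constant across libraries within 0.01 on the log2 scale for 8050 of 8057 genes checked. Of 49315 lines, 176 without a name (0.00507% to 0.0166% of counts) and 26 with a date in place of a symbol (0.0618% to 0.237%) were left out, and 94 repeated symbols were summed.

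The 34 genes, the other lists and the rules were chosen with earlier results of these data known. Counts were scaled with TMM in edgeR 4.0.16 (R 4.3.3). Within a cell type, genotypes were compared by the log2 ratio with a prior count of 2, without a p-value. A gene was counted as higher or lower at 2-fold or more and 10 CPM in the higher library. Folds carry exact conditional binomial 95% intervals; these and the floor of 3 counts cover counting error only, since amplified reads are not independent molecules. Cell types were tested with edgeR on all 6 libraries at an adjusted p of 0.05, after filterByExpr; genotype was also tested over the 3 cell types in that fit, added after seeing the data. Alternatives were library size alone, DESeq2 1.42.0 size factors or test, TPM with a pseudocount of 1, a prior count of 0.5, 4-fold, no minimum, a gene length trend, no genotype block, and leaving out each library. Tests were checked on simulated counts. Values by library are given in full for genes past 2-fold in a genotype comparison or past the cell type test and for Lamp1, Lamp2, Tfeb, Mcoln1, Psap, Grn, Atp6v0d1 and Atp6v0d2; of other lysosomal genes, at most the 4 with the largest ratio per comparison were eligible to be named, and those called between microglia and monocytes were added after their values were seen. Promoter windows are from RefSeq.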

Additional observations from a re-analysis of the deposited data

Results flagged for a closer look

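The log2 ratios of BRAF V600E to wild type had opposite signs in the macrophage types for Gaa, acid alpha-glucosidase, at 1.02 in intravascular macrophages and -1.53 in microglia. Naglu, alpha-N-acetylglucosaminidase, did the same, at 2.40 in intravascular macrophages and -1.01 in microglia. Each group was 1 library, and the difference between the cell types was not tested. Wild-type intravascular macrophages had the T and NK cell markers described above, whose part in the positive ratios was not tested. The negative ratios in microglia ran from -2.15 to -1.02 for Gaa and from -1.64 to -1.01 for Naglu over the scalings.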

How the results depend on the processing

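No paired analysis was possible because the labels give no replicate numbers to pair samples by; the fit of genotype over the 3 cell types, with the cell type as a block, takes its place. Its count of 0 genes higher became 1, Atp6v0d2, with the DESeq2 test and was 0 to 1 when 1 library was left out; its count of 0 lower did not change. For the counts of lysosomal genes 2-fold higher in BRAF V600E, removing the CPM minimum gave 1 in monocytes; TPM gave 30 in intravascular macrophages and 5 in microglia; 4-fold gave 8 in intravascular macrophages and 0 in microglia; library size alone gave 0 in microglia; and subtracting the median of all genes gave 7 in microglia. For the counts of those 2-fold lower, library size alone gave 5 in monocytes, and TPM gave 13 in monocytes and 0 in intravascular macrophages. The 4-fold rule gave 0 lower in monocytes, 0 in intravascular macrophages and 1 in microglia. Of all genes, TPM set 1506 of 8798 higher in microglia and 989 of 9565 lower in intravascular macrophages. The shares of all genes at 4-fold, without the minimum and with the median subtracted were not counted. The median log2 ratio in monocytes became -0.70 with library size alone and -0.89 with TPM. In intravascular macrophages it became 2.2004 with TPM, 1.18 without the minimum and 0.98 minus the length trend. In microglia it turned to -0.29 with library size alone, and was 0.072 with TPM, 0.55 without the minimum and 0.55 minus the length trend. With DESeq2 size factors it was 0.44, where the 10 CPM minimum was applied again on that scale. For the 32 genes at 10 CPM on the TMM scale it was 0.33 with those factors. No other median or named ratio past 2-fold changed sign. The causes were not tested.

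Between microglia and monocytes the 2 genes called higher became 1 with DESeq2 size factors, 7 with the DESeq2 test and 0 without the genotype block; leaving out 1 library each gave 0 to 15. Leaving out 1 library gave 0 to 2 genes higher and 0 to 2 lower between intravascular macrophages and monocytes, and 0 to 7 lower between intravascular macrophages and microglia. These fits keep 1 residual degree of freedom and assume that a lone library varies like the others. The share of all genes they called was not counted. Over these alternatives the adjusted p of Naglu ran from 3.99e-06 to 0.612 and that of Tpp1 from 0.000111 to 0.955. The counts of genes with both libraries above or below were added after seeing the data. With library size alone, intravascular macrophages against monocytes gave 15 above and 1 below, microglia against monocytes 2 below, and intravascular macrophages against microglia 8 below. With TPM the counts below were 0, 0 and 5 in the same order.

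Depth limits the folds of genes with few reads in a library, and their intervals were wide for Atp6v0d2 and, among the other lysosomal genes, for Galc, Mitf and Acp5. Counting intervals cover counting error only. With 1 library per group, differences between animals, sorts and preparations cannot be told apart from genotype.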

Other observations

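The relatives of Tfeb were read among the other lysosomal genes and chosen after their values were seen. Tfe3 had 47.8 CPM in BRAF V600E and 53.1 CPM in wild-type monocytes, 96.4 CPM in BRAF V600E and 56.0 CPM in wild-type intravascular macrophages, and 70.7 CPM in BRAF V600E and 145 CPM in wild-type microglia. Mitf had 27.5 CPM in BRAF V600E and 12.3 CPM in wild-type monocytes, 14.4 CPM in BRAF V600E and 0.0819 CPM in wild-type intravascular macrophages, and 15.6 CPM in BRAF V600E and 18.5 CPM in wild-type microglia. Tfec had 11.6 CPM in BRAF V600E and 2.202 CPM in wild-type monocytes and was below 1 CPM in the other 4 libraries. On the CPM scale Tfe3 was highest in wild-type microglia, Mitf and Tfec in BRAF V600E monocytes and Tfeb in wild-type monocytes. With TPM, Tfeb and Mitf were highest in BRAF V600E intravascular macrophages, and with library size alone Tfeb was highest there and Mitf in wild-type microglia.

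Per length and within a library, Atp6ap1 over Atp6v0d1, 2 genes of the same pump, was 1.29 in BRAF V600E and 1.18 in wild-type monocytes, 7.88 in BRAF V600E and 1.09 in wild-type intravascular macrophages, and 18.4 in BRAF V600E and 5.54 in wild-type microglia. The pair was chosen after its values were seen.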
